A study of Mus musculus with 16 samples.

Results

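The 10 genes studied here carry sugars, small peptides and amino acids across the absorptive cells of the small intestine, and their RNA was measured in mice and organoids lacking Cul4b, a scaffold of ubiquitin ligase complexes. They were taken by gene name from 3 count tables, and are 10 of the 52525 genes that all 3 tables list. They were Slc5a1, Slc2a5, Slc2a2, Slc15a1, Slc6a19, Slc6a20a, Slc3a1, Slc7a9, Slc7a7 and Slc7a8, and each was tested in every experiment. The comparison asks how the RNA of these carriers differs when Cul4b is deleted.

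Enterocytes absorb digested food in a relay, in which one set of carriers takes nutrients up from the lumen at the brush border and another set releases them towards the blood at the basolateral membrane. Glucose enters with sodium, di- and tripeptides enter with protons, and several amino acid carriers work only when bound to a partner protein. Mature villus enterocytes carry most of this machinery, whereas stem cells and Paneth cells at the crypt base have little of it.

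RNA sequencing was done on 16 libraries from the small intestine of C57BL/6 mice. Crypts came from 4 WT mice and 4 KO mice. The paper gives the WT control as Cul4bfn/Y, with no Cre named, so that Cre also differed between the groups. The KO mice had epithelium-wide deletion (pVillin-Cre; Cul4bfn/Y), in which Cre is driven by the villin promoter. Crypt-derived organoids of the same genotype (KO-IEC organoids) were set against their own WT organoids, with 2 libraries of each. A further 2 organoid libraries with inducible deletion (CAG-CreERT2; Cul4bfn/Y, KO-CAG organoids), in which the CAG promoter drives Cre broadly and Cre is switched on by 4-OHT, were set against 2 WT organoid libraries of their own. Whether these WT organoids also received 4-OHT is not given in the sources used here, so that the deletion and the drug cannot be told apart in the KO-CAG differences. The labels give no age for a library, and do not say whether the organoid libraries of a group came from separate mice, so that their p-values measure only the spread between these libraries. For the crypt libraries the villi had been scraped off before the crypts were released.

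Total counts ranged from 9311734 to 13479974 per crypt library, from 15006730 to 16881395 per library in the KO-IEC organoid experiment and from 7348191 to 10462275 in the KO-CAG organoid experiment. Levels are given as CPM, read counts scaled to a common library size with TMM factors, and effects as log2 fold changes of KO over WT from edgeR's quasi-likelihood test, with p-values adjusted by Benjamini-Hochberg over all genes tested. Cul4b itself was at 31.6 to 38.2 CPM in WT crypts and 0.846 to 2.20 in KO crypts, and its log2 fold change was -4.56 in crypts, -4.02 in KO-CAG organoids and -5.50 in KO-IEC organoids. The crypt libraries WT2 and WT3 stood apart by their mitochondrial ribosomal RNA, at 2840.2 and 2873 CPM, against 18.9 to 1078 in the other 6 crypt libraries. Enterocyte markers were detected in every library, and 12 of them summed to 3517 to 12696 CPM in WT crypts and 11598 to 25875 in KO crypts. In bulk samples such as these, fewer cells of a type and less RNA per cell cannot be told apart.

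In crypts, each of the 10 carriers had a higher mean level in KO than in WT, with log2 fold changes from 0.69 for Slc7a8 to 2.26 for Slc2a2. Only Slc3a1 and Slc7a7 passed the adjusted threshold of 0.05, and both were at least 2-fold higher. Those 2 of 10 stand against 4.30% of all tested genes that were called higher in KO crypts, and against 1.44% that were called higher and at least 2-fold. Slc7a7 was close to the fold limit, at 2.01-fold, and its log2 fold change was 0.92 with scaling by library size alone. No carrier was called lower, as 2.66% of tested genes were. All KO libraries lay above all WT libraries for 5 carriers (Slc5a1, Slc2a2, Slc3a1, Slc7a7 and Slc7a8), a pattern shown by 8.70% of tested genes. The 10 unadjusted p-values ranged from 0.000546 to 0.0139 and the 8 adjusted ones that missed the threshold from 0.0522 to 0.0809, so the count of 2 sat close to the threshold. An unadjusted p under 0.05 was also common in the rest of the table, at 4287 of all 13427 tested genes. Over all tested genes 934 were called, and the carriers' count moved with that number. It was 0 without any one of WT1, WT2, WT3, KO2 or KO3, where 2 to 20 genes were called in all, and without KO4, where 513 were. It was 10 without WT4 and without KO1, with 1864 and 2468 genes called, 9 by DESeq2, with 2490, and 10 with no filter on low counts, with 1479.

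**Figure D1:**
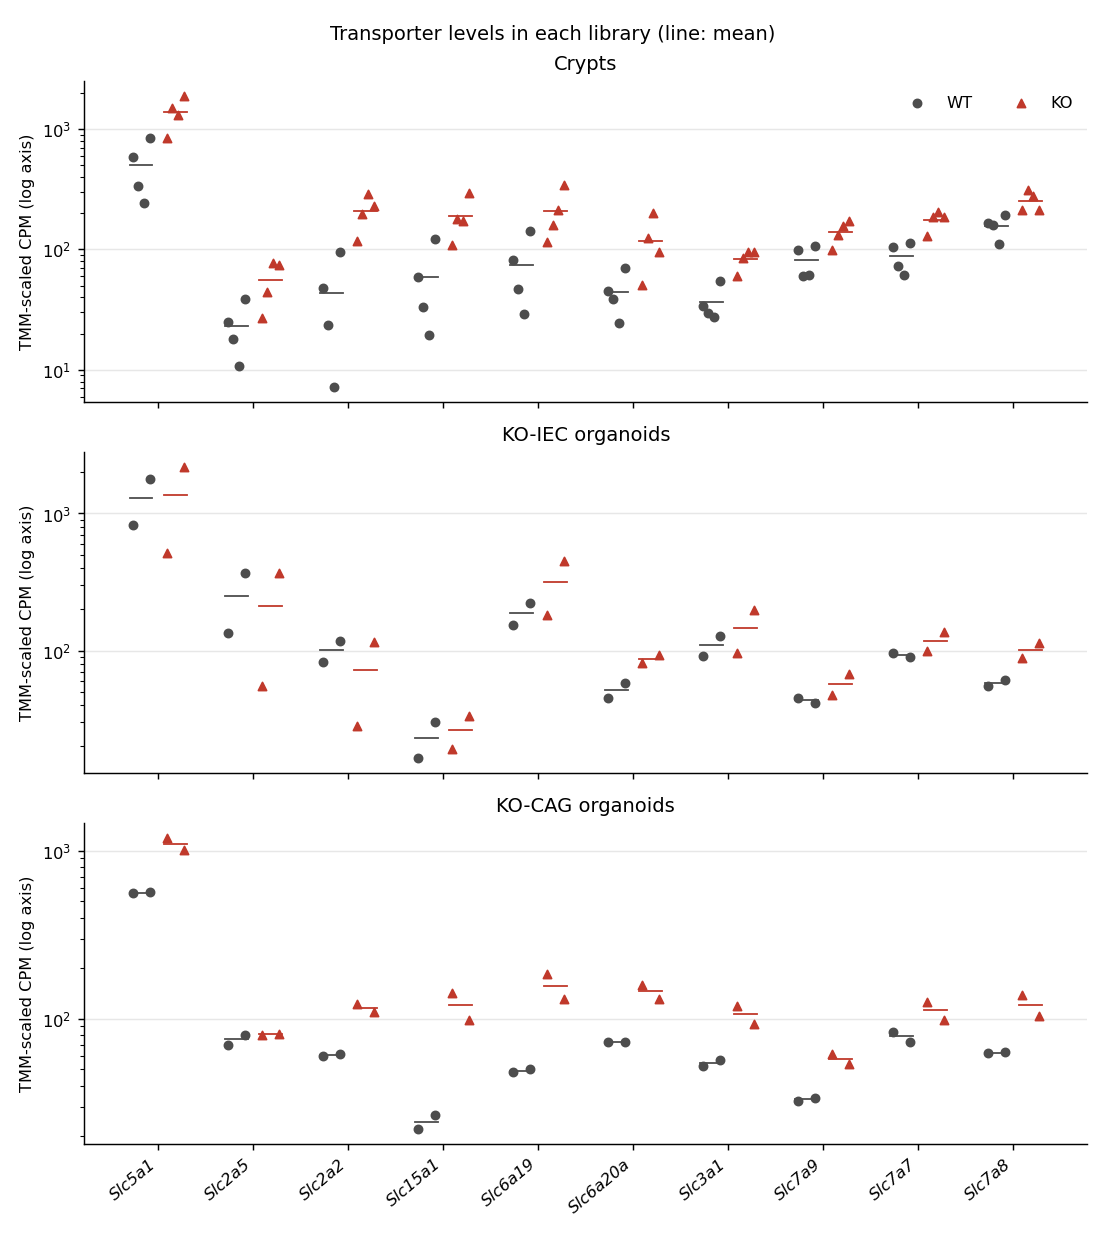
Level of each carrier in every library, in TMM-scaled CPM on a log axis, for crypts (4 WT and 4 KO libraries) and for KO-IEC and KO-CAG organoids with their own WT (2 and 2 each); circles are WT, triangles KO and short lines the group means. In KO-CAG organoids the KO libraries sit above the WT libraries for 9 carriers, with Slc2a5 as the exception.

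In KO-CAG organoids 9 of the 10 carriers were higher in KO at an adjusted p under 0.05, against 18.1% of tested genes. Slc15a1, Slc6a19 and Slc6a20a were also at least 2-fold higher, 3 of 10 against 6.36% of tested genes. Slc6a20a was at the limit, at 2.00-fold, and Slc5a1 was just under it, at 1.95-fold. None was called lower, against 13.4%, and the KO libraries lay above the WT libraries for the 9 called carriers, against 35.5%. The spread between libraries was smallest in this experiment, with a biological coefficient of variation of 0.0815 against 0.231 in crypts and 0.280 in the KO-IEC experiment, and 0 of 10 passed when all 16 libraries shared 1 estimate of the spread, in which 477 genes were called against 4278.

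In KO-IEC organoids no carrier passed the test by edgeR or DESeq2. By edgeR 2 had an unadjusted p under 0.05, as did 650 of all 13938 tested genes. There, 0% of tested genes were called higher, with or without the 2-fold limit, and 0.00717% (Cul4b alone) were called lower. The KO libraries lay above the WT libraries for 4 carriers (Slc6a20a, Slc7a9, Slc7a7 and Slc7a8), against 19.4% of tested genes. Without KO1, the KO library that was lowest for all 10 carriers, 6 of 10 passed and 2322 genes were called in all. The spread in that fit came from the 2 WT libraries alone, and KO2 was assumed to vary like them.

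**Figure D2:**
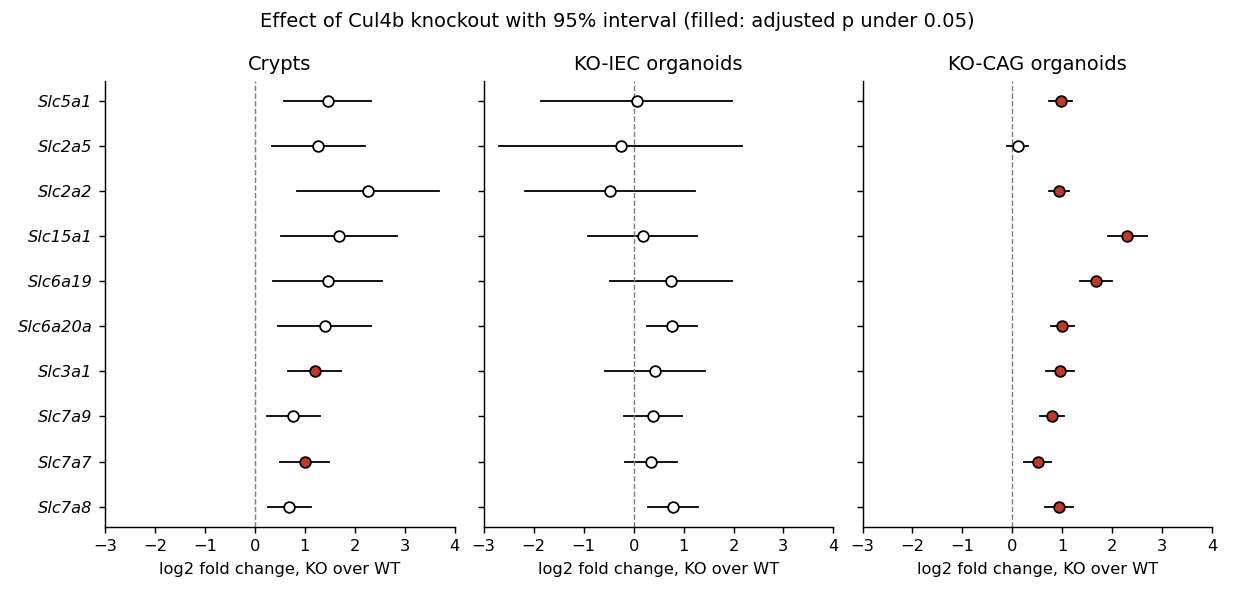
Log2 fold change of KO over WT for each carrier in the 3 experiments, with the 95% interval of the fit as a line and a filled marker where the adjusted p was under 0.05. The intervals in KO-IEC organoids are the widest for Slc2a5 (-2.69 to 2.17), and that of Slc2a5 in KO-CAG organoids spans 0.

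Slc5a1 encodes SGLT1, the sodium-coupled carrier that brings glucose and galactose across the brush border. It lies on the plus strand of chromosome 5, and the 250 bases before its start (RefSeq, GRCm38.p6, chr5:33103969-33104218) are given to show the promoter of the most abundant carrier.
Slc5a1: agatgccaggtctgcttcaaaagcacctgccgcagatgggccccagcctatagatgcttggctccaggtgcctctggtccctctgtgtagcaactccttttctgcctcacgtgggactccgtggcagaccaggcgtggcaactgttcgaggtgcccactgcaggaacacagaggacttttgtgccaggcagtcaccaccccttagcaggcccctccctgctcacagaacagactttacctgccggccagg
Slc5a1 measured 586, 336, 244 and 849 CPM in crypt libraries WT1 to WT4, and 849.9, 1487, 1314 and 1894 CPM in KO1 to KO4. The groups met without overlapping, since WT4 and KO1 differed by little. The fold was 2.75 (log2 fold change 1.46, SE 0.39, adjusted p = 0.0522, exact two-sided permutation p = 0.0286, the smallest that 4 against 4 allows). In KO-CAG organoids Slc5a1 rose from 557 and 569 CPM to 1195 and 1007 CPM (log2 fold change 0.97, SE 0.10, adjusted p = 0.000129). In KO-IEC organoids the level was 829 and 1770.2 CPM in WT and 516 and 2196 CPM in KO, so that the KO libraries lay on either side of both WT libraries.

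Slc2a2 encodes GLUT2, which lets glucose, galactose and fructose leave the cell on the basolateral side. Its 250 bases before the start (RefSeq, GRCm38.p6, plus strand, chr3:28697653-28697902) belong to the carrier with the highest fold in crypts.
Slc2a2: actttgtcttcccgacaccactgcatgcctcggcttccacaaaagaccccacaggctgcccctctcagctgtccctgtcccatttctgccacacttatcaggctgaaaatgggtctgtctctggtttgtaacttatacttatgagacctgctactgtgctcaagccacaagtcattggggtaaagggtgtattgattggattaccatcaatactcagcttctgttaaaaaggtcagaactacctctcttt
Slc2a2 measured 48.2, 23.7, 7.18 and 94.6 CPM in WT crypts and 117, 197, 289.9 and 231 CPM in KO crypts. WT3 was far below the other libraries, and the WT libraries spanned 13.2-fold from lowest to highest. The fold in KO crypts was 4.80 with a wide interval (log2 fold change 2.26, SE 0.64, adjusted p = 0.0579, 95% interval 0.84 to 3.69). KO-CAG organoids held 122 and 109.9 CPM against 60.2 and 61.3 CPM in WT (log2 fold change 0.93, SE 0.09, adjusted p = 6.49e-05). In KO-IEC organoids KO1, at 28.3 CPM, was below the other 3 libraries, which held 82.9 to 117 CPM, and the difference did not pass (log2 fold change -0.47, SE 0.66).

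Slc2a5 encodes GLUT5, the fructose carrier of the brush border, and it was the one carrier that was not called in KO-CAG organoids. Its sequence before the start is given for that reason (RefSeq, GRCm38.p6, plus strand, chr4:150119094-150119282, 189 bases, ending where the GENCODE M21 gene begins).
Slc2a5: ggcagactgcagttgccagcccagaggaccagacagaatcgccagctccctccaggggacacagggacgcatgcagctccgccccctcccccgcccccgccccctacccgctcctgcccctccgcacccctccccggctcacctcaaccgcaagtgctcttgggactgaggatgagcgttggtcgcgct
Slc2a5 measured 70.2 and 80.5 CPM in WT and 80.0 and 81.6 CPM in the KO-CAG organoids, so both groups overlapped (log2 fold change 0.10, SE 0.09, adjusted p = 0.430, 95% interval -0.11 to 0.31). Against the mean of the other 9 carriers in the same library, on the log2 CPM scale, Slc2a5 differed by -1.01 between KO-CAG and WT organoids. The same relative difference was -0.92 in the KO-IEC experiment, where that of Slc2a2 was -1.07, and -0.14 in crypts. On this scale the Slc2a5 groups overlapped in the KO-IEC experiment, at 0.70 to 1.75 in WT and -0.56 to 1.18 in KO. In crypts Slc2a5 itself measured 24.8, 18.1, 10.8 and 38.6 CPM in WT and 27.2, 44.7, 77.1 and 74.0 CPM in KO (log2 fold change 1.27, SE 0.41, adjusted p = 0.0766). Only KO1 reached into the WT range, below WT4. In the KO-IEC experiment KO1 held 55.4 CPM of Slc2a5 and KO2 365 CPM, while WT held 134 and 369 CPM.

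Values are given for 3 genes of sugar handling after uptake, which were chosen after their values were seen. In KO-CAG organoids 4 of the 17 tested genes of their list were called higher and 3 lower, against 18.1% and 13.4% of all tested genes. In those organoids Khk, which phosphorylates fructose, had a log2 fold change of 0.11, Tkfc, which phosphorylates glyceraldehyde, -0.11, and G6pc, which frees glucose from its phosphate, 0.07, with adjusted p from 0.376 to 0.720. In crypts the same 3 genes had log2 fold changes of 0.78, 0.95 and 2.09, with adjusted p from 0.0588 to 0.132.

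Slc15a1 encodes PEPT1, the proton-coupled carrier of di- and tripeptides. In KO-CAG organoids it measured 143 and 97.7 CPM against 22.0 and 26.6 CPM in WT, the highest fold among the 10 there (4.93-fold, log2 fold change 2.30, SE 0.18, adjusted p = 2.04e-05). In crypts it measured 59.3, 33.2, 19.5 and 122 CPM in WT and 109, 180.4, 172 and 293 CPM in KO. KO1 fell below WT4, and the other KO libraries were above all WT libraries (log2 fold change 1.69, SE 0.52, adjusted p = 0.0682). In KO-IEC organoids it was at 19.1 and 33.4 CPM against 16.4 and 30.0 CPM in WT (log2 fold change 0.18, SE 0.42, adjusted p = 0.929), with overlapping groups.

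Slc6a19 encodes B0AT1, the main sodium-coupled carrier of neutral amino acids in the brush border. It measured 81.3, 47.0, 29.2 and 142 CPM in WT crypts and 114, 158, 212 and 342 CPM in KO crypts, with KO1 again below WT4 (log2 fold change 1.46, SE 0.49, adjusted p = 0.0809). KO-CAG organoids held 184 and 131 CPM against 48.2 and 50.1 CPM in WT, a 3.19-fold rise (log2 fold change 1.67, SE 0.15, adjusted p = 4.10e-05). Slc6a20a, a carrier of proline and related imino acids, was at 159 and 132 CPM in KO-CAG organoids and 72.2 and 72.6 CPM in WT (log2 fold change 1.00, SE 0.10, adjusted p = 9.27e-05). In KO-IEC organoids Slc6a20a was at 81.7 and 92.8 CPM against 44.9 and 57.7 CPM in WT (log2 fold change 0.77, SE 0.20, adjusted p = 0.856, unadjusted p 0.0114), and the groups did not overlap. In crypts its groups overlapped, at 44.9, 39.0, 24.6 and 70.2 CPM in WT and 51.0, 123, 199.9 and 96.1 CPM in KO (log2 fold change 1.40, SE 0.41, adjusted p = 0.0635). Its near copy Slc6a20b stayed at or under 1.75 CPM in every crypt library, and rose in KO-CAG organoids (log2 fold change 1.05, SE 0.22, adjusted p = 0.00481), where reads shared by the copies could have been counted for either. Slc6a20a also shares 563 exonic bases (13.79%) with the antisense gene Gm17120, which was at most 4.13 CPM in any library.

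Slc3a1 and Slc7a9 encode the heavy and light subunits of the brush border carrier of cystine and basic amino acids, which is lost in cystinuria. The sequence before Slc3a1 (RefSeq, GRCm38.p6, plus strand, chr17:85028097-85028346) is given because it alone among the 10 holds the HNF4 motif, marked in capitals.
Slc3a1: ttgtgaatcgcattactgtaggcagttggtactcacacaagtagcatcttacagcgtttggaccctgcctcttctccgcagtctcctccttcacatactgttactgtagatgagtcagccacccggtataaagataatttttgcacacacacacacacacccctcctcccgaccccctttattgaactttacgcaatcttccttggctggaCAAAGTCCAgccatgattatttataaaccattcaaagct
Slc3a1 measured 34.2, 29.7, 27.4 and 55.0 CPM in WT crypts and 59.9, 84.4, 96.0 and 95.9 CPM in KO crypts. All KO libraries were above WT4, the highest WT library, and Slc3a1 passed the test (log2 fold change 1.20, SE 0.24, adjusted p = 0.0397). Slc7a9 measured 99.8, 60.7, 61.3 and 107 CPM in WT crypts and 99.9, 133, 156 and 174 CPM in KO crypts (log2 fold change 0.77, SE 0.23, adjusted p = 0.0656), with KO1 inside the WT range. In KO-CAG organoids both subunits rose, Slc3a1 to 119 and 92.5 CPM from 52.1 and 56.9 CPM (log2 fold change 0.95, SE 0.12, adjusted p = 0.000363) and Slc7a9 with a log2 fold change of 0.80 (SE 0.11, adjusted p = 0.000526). The values of Slc3a1 carry one doubt about counting. It shares 601 exonic bases, 26.46% of its own in GENCODE M21, with Prepl on the other strand, and the strand setting is not given in the sources used here. Prepl was at 43.7 to 57.7 CPM in WT crypts and 62.0 to 68.2 CPM in KO crypts (log2 fold change 0.38, adjusted p = 0.0518), and its log2 fold change in KO-CAG organoids was -0.05.

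Slc7a7 and Slc7a8 encode the light chains y+LAT1 and LAT2, which pair with the heavy chain Slc3a2 to release basic and neutral amino acids at the basolateral side. Slc7a7 measured 105, 72.5, 60.8 and 114 CPM in WT crypts and 129, 186, 205 and 185 CPM in KO crypts. The groups did not overlap, and Slc7a7 passed the test (log2 fold change 1.00, SE 0.22, adjusted p = 0.0431). It shares 232 exonic bases (7.0%) with Oxa1l on the other strand, whose log2 fold change in crypts was -0.25 (adjusted p = 0.0847), and that in KO-CAG organoids was -0.35 (adjusted p = 0.0123). Slc7a8 measured 165, 159, 110.2 and 194 CPM in WT crypts and 212, 310.1, 277 and 213 CPM in KO crypts (log2 fold change 0.69, SE 0.19, adjusted p = 0.0560), again without overlap. In KO-CAG organoids Slc7a7 had the lowest fold of the 9 called carriers (log2 fold change 0.51, SE 0.12, adjusted p = 0.00986), and Slc7a8 had about the fold of Slc5a1 (log2 fold change 0.94, SE 0.13, adjusted p = 0.000504). Slc7a8 was also at 87.6 and 114 CPM in KO-IEC organoids against 55.4 and 61.0 CPM in WT (log2 fold change 0.79, SE 0.19, unadjusted p 0.00969, adjusted p = 0.856). The heavy chain Slc3a2 rose in crypts (log2 fold change 0.61, SE 0.15, adjusted p = 0.0475), and also in the KO-CAG organoids (log2 fold change 1.02, SE 0.11, adjusted p = 0.000137), and had a log2 fold change of -0.03 in KO-IEC organoids.

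Compared per length, in CPM per kb of the gene length in the tables, Slc5a1 had the highest level of the 10 in all 6 groups, and its range did not overlap the next carrier in any of them. In WT crypts it was at 123 ± 66.2 CPM per kb (SD, n = 4), followed by Slc7a8 at 38.9 ± 8.59 and Slc7a9 at 30.7 ± 9.24, whose ranges overlapped. The lowest level in WT crypts was that of Slc2a5, at 6.78 ± 3.47 CPM per kb, which overlapped the next lowest, Slc2a2. In the WT organoids of the KO-IEC experiment Slc2a5 was second by its mean, overlapping Slc3a1, at 73.9 ± 48.9 CPM per kb (SD, n = 2), and Slc15a1 last, at 4.74 ± 1.96. Slc15a1 was last too in the WT organoids of the KO-CAG experiment, at 7.78 ± 1.05 CPM per kb, and was by its mean behind only Slc5a1 and Slc3a1 in the KO-CAG organoids, at 38.6 ± 10.3. The KO-IEC organoid table gives other lengths for Slc15a1, Slc7a7 and Slc7a8 than the other tables, so their levels per length are not on the same base across tables.

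**Figure D3:**
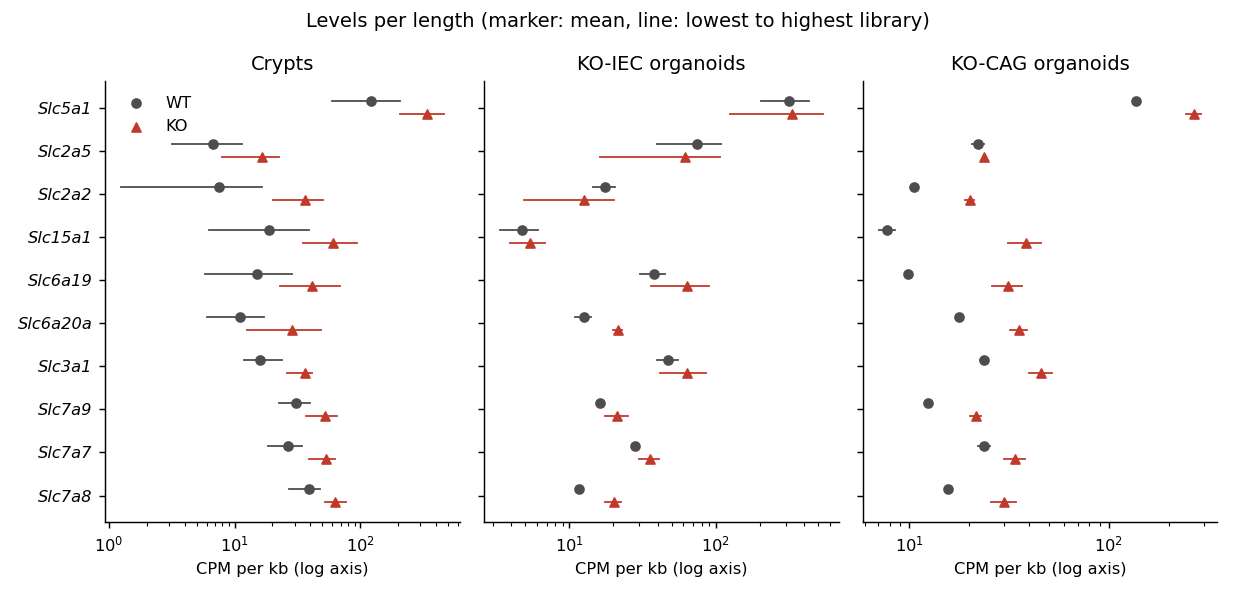
Level of each carrier per length, in CPM per kb on a log axis, with markers at the mean and lines from the lowest to the highest library (4 libraries per genotype in crypts, 2 in each organoid group). Slc5a1 lies to the right of all other carriers in every group, and Slc15a1 is the lowest in both sets of WT organoids.

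Some libraries were high or low for nearly all carriers. In WT crypts WT4 was the highest library for all 10 carriers and WT3 the lowest for 9, and in KO crypts KO1 was the lowest for all 10, while the highest was KO3 for 5, KO4 for 4 and KO2 for 1. Summed over the 10 carriers, WT crypts held 595 to 1786 CPM and KO crypts 1769 to 3598, and Slc5a1 alone made up 41.0 to 52.6% of the sum. Within the libraries low in mitochondrial ribosomal RNA (WT1 against KO1, KO2 and KO3) the log2 differences were 0.35 to 1.96, and between the 2 middle libraries (WT4 against KO4) 0.14 to 1.29, all of them higher in KO. The high class held only WT libraries, and without it the log2 fold changes of the carriers were 0.44 to 1.54, while 1 gene of all those tested was called and no carrier was. In KO-IEC organoids KO1 was the lowest and KO2 the highest of the KO libraries for every carrier, with sums of 1211 and 3769 CPM, on either side of the WT sums of 1549 and 2887 CPM. KO2 also stood apart in other cell type markers, with stem cell markers at 604 CPM against 2225 to 4763 in the other 3 libraries, goblet markers at 7025 against 1778 to 2091 and enteroendocrine markers at 988 against 281 to 513.

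**Figure D4:**
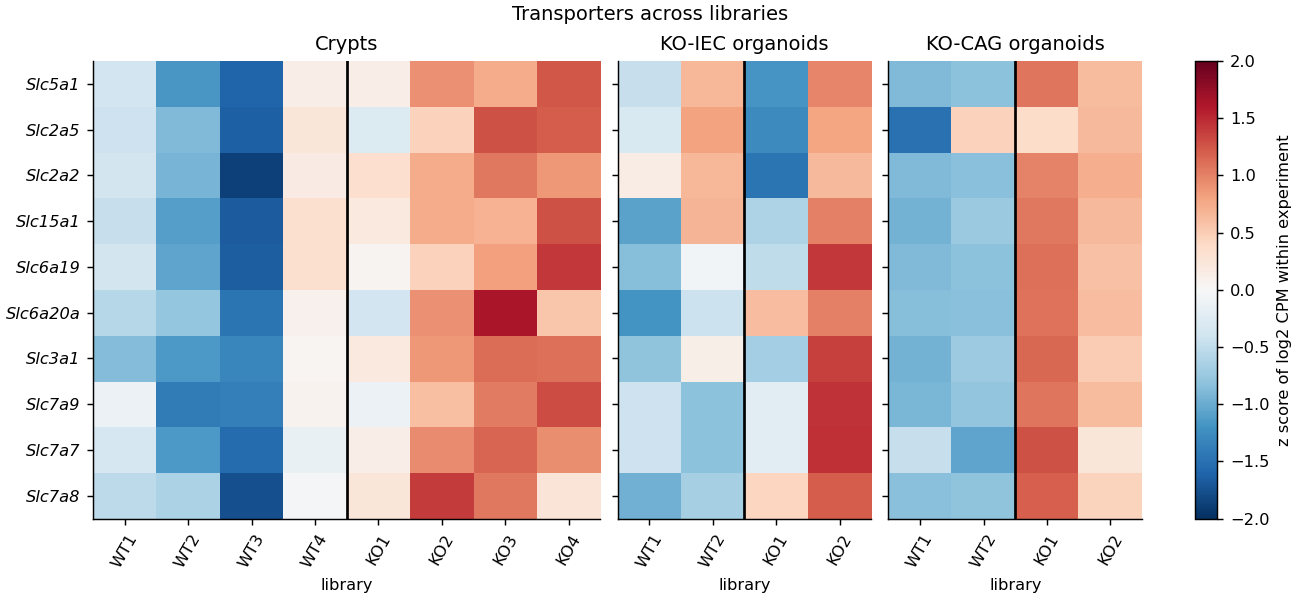
Z scores of log2 CPM, computed within each experiment, for the 10 carriers (rows) in the 16 libraries (columns), with a black line between WT and KO. WT3 is the lowest crypt library for 9 of the 10 carriers, and KO1 of the KO-IEC experiment is below KO2 for all 10.

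Enterocyte markers moved with the carriers. In crypts 3 of 12 were called higher and 0 lower, against 4.30% and 2.66% of all tested genes. The median log2 fold change of the markers was 1.57 against -0.01 over all tested genes, and 1.33 for the 10 carriers. In KO-CAG organoids 11 of 12 were called higher, against 18.1% of all tested genes. Their median was 1.26 for the markers, 0.00 over all tested genes and 0.94 for the carriers. The markers summed to 13502 to 16957 CPM in KO and 6275 to 6755 in WT. In KO-IEC organoids 0 of 12 were called, the sum was 6770.0 to 16877 CPM in KO and 8019 to 12287 in WT, and the medians were 0.25 for the markers and 0.37 for the carriers. With an enterocyte marker score as a covariate in crypts, 1 gene was called by edgeR over the whole table and 0 carriers were, and the log2 fold changes of the 10 ranged from -0.23 to 0.43. All 12 markers in that score were higher in KO crypts, so the score itself carries part of the genotype difference. Goblet (7 of 7), enteroendocrine (8 of 8) and Paneth cell markers (7 of 9) were also called higher in KO-CAG organoids, against 18.1% of all tested genes. In crypts 0 of each list was called higher, against 4.30%. Stem cell markers went the other way, with 2 of 8 called lower in crypts, against 2.66% of all tested genes. In KO-CAG organoids 3 of 8 were called lower, against 13.4%. Immune markers summed to 19.1 to 56.3 CPM in WT crypts and 24.4 to 103 in KO crypts, and stromal and vascular markers to at most 9.41 CPM in any library. The part of these cell types in the differences of the carriers was not tested.

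**Figure D5:**
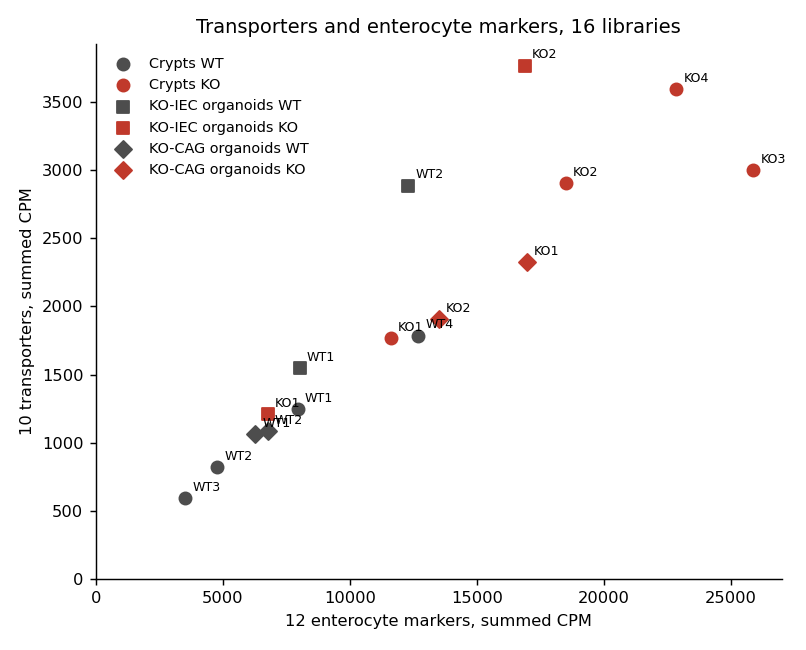
Summed CPM of the 10 carriers (vertical axis) against summed CPM of 12 enterocyte markers (horizontal axis) in the 16 libraries, with gray for WT, red for KO and the marker shape for the experiment. Both sums are lowest in WT3 of the crypts, and in KO-CAG organoids both KO libraries are above both WT libraries on each axis.

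The 5 other genes whose pattern over the 8 crypt libraries lay closest to the mean z score of the carriers were Vil1, Slc16a5, Ppargc1a, Cyp2d22 and Gnpda1, with root mean square differences of 0.0588 to 0.101 in z units. Vil1, which encodes the brush border protein villin, is one of the enterocyte markers. The carriers themselves lay at 0.135 (Slc7a7) to 0.385 (Slc7a8) from that mean.

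Other sugar carriers, partners and regulators were taken from lists of known genes. Among 19 other sugar carriers, 12 were tested in KO-CAG organoids (median log2 fold change 0.65). Of these, 7 were called higher and 0 lower, against 18.1% and 13.4% of all tested genes. They included the SGLT relatives Slc5a4b (log2 fold change 2.22, SE 0.16, adjusted p = 1.54e-05), Slc5a11, a carrier of inositol, (log2 fold change 1.73, SE 0.15, adjusted p = 3.65e-05) and Slc5a4a (log2 fold change 1.65, adjusted p = 0.00205). Slc2a9, Slc2a7 and Slc5a9 had log2 fold changes of 0.89, 0.97 and 0.52 there. In crypts 0 of the 13 tested were called by edgeR, and their median was 0.41. Of the 13, 6 had an unadjusted p under 0.05, as did 4287 of all 13427 tested genes. Slc2a1, the widely expressed glucose carrier GLUT1, was not called in any experiment, with log2 fold changes of -0.27 in crypts, -0.11 in KO-CAG organoids and 0.17 in KO-IEC organoids.

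The other amino acid and peptide carriers did not move one way. Of 21 tested in KO-CAG organoids 6 were called higher and 4 lower, against 18.1% and 13.4% of all tested genes. The median of the 21 was 0.14. Slc43a2, a carrier of large neutral amino acids (log2 fold change 1.18, SE 0.14, adjusted p = 0.000233), Slc7a11, the cystine and glutamate exchanger (log2 fold change 1.59, SE 0.21, adjusted p = 0.000457), and Slc16a10, the aromatic amino acid carrier (log2 fold change 0.75, SE 0.10, adjusted p = 0.000510), rose. Slc1a1, a glutamate carrier (log2 fold change -1.35, SE 0.22, adjusted p = 0.00146), Slc7a2, a carrier of basic amino acids (log2 fold change -1.27, SE 0.16, adjusted p = 0.000285), and Slc1a5, a glutamine carrier (log2 fold change -0.50, SE 0.08, adjusted p = 0.00139), fell. In crypts 1 of 19 was called higher, against 4.30% of all tested genes, and the median was 0.02. The called gene was Slc16a10 (log2 fold change 1.10, SE 0.26, adjusted p = 0.0459). No gene of this list was called without any one of WT1, WT2, WT3, KO2 or KO3. Without KO4, 0 were called higher and 1 lower. Without WT4, 4 were called higher and 1 lower, and without KO1, 5 higher and 1 lower.

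Among 13 partners and genes of ion drive, 11 were tested in KO-CAG organoids, with a median of 1.02. Of these, 8 were called higher and 1 lower, against 18.1% and 13.4% of all tested genes. Anpep, the aminopeptidase of the brush border (log2 fold change 1.46, SE 0.15, adjusted p = 8.50e-05), the sodium-proton exchanger Slc9a3 (log2 fold change 1.78, SE 0.15, adjusted p = 3.81e-05) and the scaffolds Slc9a3r1 (log2 fold change 1.35, SE 0.12, adjusted p = 4.10e-05) and Pdzk1 (log2 fold change 1.51, SE 0.26, adjusted p = 0.00166) rose in KO-CAG organoids. In crypts 2 of 11 were called higher, against 4.30% of all tested genes. They were Slc3a2 and the sodium pump subunit Atp1b1 (log2 fold change 0.70, SE 0.17, adjusted p = 0.0466). That count of 2 was 0 without any one of WT1, WT2, WT3, KO2, KO3 or KO4 and with scaling by library size alone. Without WT4, and also without KO1, 8 were called higher and 1 lower. Tmem27 (Cltrn), the renal partner of Slc6a19, was at most 4.84 CPM in any library, and in no experiment was it called.

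Of 17 tested regulators and fructose genes, 2 were called higher in crypts, against 4.30% of all tested genes. In KO-CAG organoids 4 were called higher and 3 lower, against 18.1% and 13.4% of all tested genes. The crypt count of 2 was 0 without any one of WT1, WT2, WT3, KO2 or KO3, 1 without KO4, 6 without KO1 and 7 without WT4. Sgk1, a kinase that raises the activity of several carriers, was called in crypts (log2 fold change 1.82, SE 0.41, adjusted p = 0.0450), and also in the KO-CAG organoids (log2 fold change 3.26, SE 0.26, adjusted p = 2.19e-05), and so was Hnf4g, an enterocyte transcription factor (log2 fold change 0.91, SE 0.20, adjusted p = 0.0438 in crypts and log2 fold change 0.53, SE 0.11, adjusted p = 0.00444 in KO-CAG organoids). Cdhr5, a cadherin of the brush border, and Mlx, the partner of Mlxipl, rose in KO-CAG organoids (log2 fold changes 1.57 and 0.70). Mlxipl, the sugar-sensing factor ChREBP, fell there (log2 fold change -0.42, SE 0.08, adjusted p = 0.00406). None of the tested genes of these 4 lists (12, 21, 12 and 17) was called in KO-IEC organoids by edgeR. An unadjusted p under 0.05 was found for 3 of them, and for 650 of all 13938 tested genes.

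Motifs of gut transcription factors were looked for in the 250 bases before the RefSeq starts, on both strands, in the windows of 27025 genes. The HNF4 motif CAAAGTCCA was in the window of 1 carrier, Slc3a1, 39 bases before its start, and in those of 0.451% of all genes. The HNF1 motif GTTAAT was in 2 carriers (Slc6a20a and Slc7a7) and 7.486% of genes, the CDX motif TTTATNG in 1 (Slc3a1) and 11.297%, and the GATA motif NGATAAN in 4 (Slc2a2, Slc3a1, Slc7a7 and Slc7a9) and 25.332%. The windows of Slc5a1, Slc2a5, Slc15a1, Slc6a19 and Slc7a8 held none of the 4 motifs.

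The effect of the deletion was compared between experiments in a fit of all 16 libraries. No carrier passed in any of the 3 comparisons by edgeR or DESeq2, against 0.372% of tested genes for KO-CAG organoids against crypts, 0.00642% for KO-IEC organoids against crypts and 0.385% for KO-CAG against KO-IEC organoids. With no filter on low counts 2, 4 and 3 carriers passed, beside 674, 572 and 599 genes in all. By edgeR with the filter 0, 1 and 1 carriers had an unadjusted p under 0.05. These were Slc2a2, whose log2 fold change was lower by 2.71 in KO-IEC organoids than in crypts (difference -2.71, SE 1.02, adjusted p = 0.639), and Slc15a1, whose log2 fold change was higher in KO-CAG than in KO-IEC organoids (difference 2.10, SE 0.95, adjusted p = 0.449). For Slc2a5 the difference between KO-CAG organoids and crypts was -1.18 (SE 0.92, adjusted p = 0.612), which does not separate its lack of a call in KO-CAG organoids from its higher mean in KO crypts.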

How the data were processed

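Raw read counts per gene, deposited by the authors as one table per experiment, were analysed for 16 libraries. The submitters' processing notes name HISAT2 2.0.5 and featureCounts 1.5.0-p3. The genome build, annotation and strand setting are not given in the sources used here, and most positions in the tables equal those of GENCODE M21 (GRCm38). KO was compared with WT within each experiment with edgeR 4.0.16 in R 4.3.3 (filterByExpr, TMM, quasi-likelihood F test, Benjamini-Hochberg over 13427, 13938 and 13598 genes in crypts, KO-IEC and KO-CAG organoids), and between experiments by contrasts in 1 fit of 15585 genes. A gene was called at an adjusted p under 0.05. SEs were derived from the fold change and its F statistic. Single genes were also compared by exact two-sided permutation tests over libraries, which cannot go below 0.333 with 2 against 2. Log2 CPM used a prior count of 2. DESeq2 1.42.0, other filters, scalings, covariates, a replicate block and leaving out each library were the alternatives. The scripts were tested on simulated data. No 2 libraries of a group agreed within sampling noise (chi-square per degree of freedom of 3.97 or more).

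The 10 genes and all lists were chosen with earlier results of these data known. Named beside the 10 were, per list, up to 6 genes called in at least 1 experiment with the smallest adjusted p, then Slc3a2, Cltrn (Tmem27), Slc6a20b, Slc2a1 and Slc1a1 in every case, and the 5 genes closest in pattern. Atp1b1, Khk, Tkfc, G6pc and the overlapping genes Prepl and Oxa1l were added after their values were seen. Some genes that the rule would name are not reported here.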

Additional observations from a re-analysis of the deposited data

How the results depend on the processing

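Against 2 carriers called in crypts, 10 were called with no low-count filter, 9 with DESeq2 and 7 when all 16 libraries were fitted together. The count was 0 with the mitochondrial ribosomal RNA class or the enterocyte marker score as a covariate, and 0 with the high class left out, which was chosen after seeing the data. Over all tested genes only 2, 1 and 1 were called in these 3 fits, so the 0 carriers say nothing particular about the carriers. Leaving out 1 library gave 0 to 10 in crypts, 0 to 6 in KO-IEC organoids (6 without KO1) and 8 to 9 in KO-CAG organoids. In KO-CAG organoids the count of 9 was 0 when all 16 libraries were fitted together and 3 with the 2-fold limit. With no low-count filter, 2, 4 and 3 carriers differed in effect for KO-CAG organoids against crypts, KO-IEC organoids against crypts and KO-CAG against KO-IEC organoids, where the reported counts were 0. The causes of these shifts were not tested.

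With the enterocyte marker score, the log2 fold changes in crypts changed sign for Slc2a5 (-0.23), Slc6a19 (-0.097), Slc6a20a (-0.015) and Slc7a9 (-0.0016). Their adjusted p ranged from 0.792 to 0.999 by edgeR. All 12 markers in the score were higher in KO crypts, so the score itself carries part of the genotype difference. In KO-IEC organoids Slc5a1 changed sign when scaled by library size alone (-0.037). Leaving out 1 library there turned the sign of Slc5a1 (-1.33 to 0.75), Slc15a1 (-0.28 to 0.66), Slc2a5 (-2.18 to 0.63), Slc2a2 (-1.82 to 0.21), Slc6a19 (-0.053 to 1.26) and Slc3a1 (-0.19 to 0.86). In KO-CAG organoids Slc2a5 ranged from -0.0065 to 0.20.

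With the replicate block, 0 carriers passed in crypts, where 4 genes were called in all and none of the other 4 lists held a call, 0 in KO-IEC organoids, where Slc5a1 changed sign (-0.19), and 9 in KO-CAG organoids. Same-numbered crypt libraries had deviations that correlated at -0.04, 0.19, -0.40 and 0.43, with the organoid pairs at 0.34 and 0.07. With 2 libraries per group, the correlation with the other number is forced to the opposite sign. These values therefore cannot decide whether same-numbered libraries were paired. In crypts 2 of the 4 pairs correlated best with their own number.

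With 2 libraries per group and a biological coefficient of variation of 0.280 in the KO-IEC organoid experiment, against 0.231 in crypts and 0.0815 in the KO-CAG organoid experiment, the 95% intervals of 8 of the 10 carriers in KO-IEC organoids spanned 0. Strand, annotation and the share of enterocytes in each library were not known, which limits the values of Slc3a1, Slc7a7 and Slc6a20a and of every carrier that moved with the enterocyte markers.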
